A study of Mus musculus with 18 samples.

Results

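The loss of miR-155 from CD4+ T cells inside a tumor was followed by comparing 3 libraries of CD4+ T cells from mice with a floxed miR-155 gene and Cre under the CD4 promoter with 3 libraries from mice that carried the floxed gene without Cre. These 6 libraries were chosen by their labels out of the 18 of the series, and every difference below is deficient minus floxed over all genes. In both groups B16f10-OVA cells, a mouse melanoma line that carries ovalbumin, had been injected under the skin of the hind flank of B6 mice, and tumors were taken after 12 days, digested and flow sorted. Neither group received antibodies, and the age of the mice was not given in the sources used here. Each library pools sorted cells of 2 to 3 tumors, so that p-values measure only the spread between pools. The CD4 promoter is active in the T cell lineage as a whole and so is not limited to CD4+ cells. A further 3 CD4 libraries, called "treated" here, came from deficient mice injected on days 3, 6 and 9 with antibodies to CTLA-4 and to the PD-1 pathway (PD-1/PD-L1), and their values stand beside some results. Floxed mice with antibodies were not analysed here, so the treated values share the floxed libraries as their only reference and are set beside the others without a test.

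MiR-155 is a microRNA that T cells, B cells and macrophages make when they are activated. It is cut from a long non-coding transcript of the host gene Mir155hg, and it lowers the output of messenger RNAs whose 3′ untranslated region (3′UTR) pairs with its seed, bases 2 to 8 of the mature strand. In CD4+ T cells it is known for its role in helper cell responses, in the fitness of regulatory T cells and in cytokine signalling, with Socs1 and Inpp5d among its reported targets. The mature strand is shown here because the matches examined further on are the reverse complement of its seed (in capitals). It lies at chr16:84714143-84714165 on the plus strand (RefSeq, GRCm38.p6), and it was the only 1 of 1738 mature mouse entries with this seed.
mmu-miR-155-5p: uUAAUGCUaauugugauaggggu

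Expression is given as CPM, counts per M (mega) counts of a library whose size is scaled with the trimmed mean of M-values, in the order replicate 1, 2 and 3. Each log2 fold change comes with its standard error (SE) from the fit, and adjusted p-values are Benjamini-Hochberg values of edgeR's quasi-likelihood test over 14080 genes. A gene "rose" or "fell" where its adjusted p was under 0.05. Mir155hg (a non-coding RNA gene at chromosome 16, 84703167 to 84715245) stood at 4.88, 8.24 and 6.72 CPM in floxed CD4 cells and at 0.649, 0 and 0.566 CPM in deficient cells. It fell by 4.05 on the log2 scale (SE 0.74, adjusted p = 0.00126), with no overlap between groups, and in CD8 cells by 4.04 (CD4 minus CD8 difference -0.01, adjusted p = 0.988). The hairpin gene Mir155 itself had 0 counts in all 18 libraries, so the check of the labels rests on the host transcript. Gh, the growth hormone gene (chromosome 11, 106300271 to 106301865), had 0 counts in the 3 floxed CD4 libraries and stood at 44.9, 31.4 and 32.2 CPM in the deficient ones. It was at least 214-fold higher (against 3 counts over the floxed group; adjusted p = 2.79e-05). It stood at 45.2, 39.8 and 34.1 CPM in the treated libraries and at 0 in the CD8 cells of both genotypes. Whether these reads come from Gh itself or from growth hormone sequence in a transgene of these mice was not tested.

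The 6 libraries held 3.87 to 7.39 M counts. Correlation of log expression between libraries was 0.960 to 0.978 within a group and 0.902 to 0.953 between the groups. The summed level of the pan T cell list was 5025, 4916 and 3222 CPM in floxed and 4823, 5009 and 5427 CPM in deficient libraries, lowest in floxed replicate 3. Of its 16 members 0 were called and 15 had a positive log2 fold change (median 0.26, and 0.02 without floxed replicate 3). Cd4 itself stood at 434, 470 and 233 CPM in floxed and at 638, 640 and 530 CPM in deficient cells (log2 fold change 0.67, SE 0.32, adjusted p = 0.211). RNA of other cells did not lie evenly across the groups. The summed level of 25 macrophage and monocyte markers was 18890, 13850 and 29320 CPM in floxed libraries against 3733, 5476 and 5443 CPM in deficient ones, and none of the 25 was at 0 in any of them. Cd8a, which defines CD8 cells, reached 1.01%, 10.9% and 9.46% of its mean level in floxed CD8 libraries in the 3 floxed CD4 libraries, against 0.0201%, 0.0104% and 0.0191% in the deficient ones. It stood at 14.6, 150 and 142 CPM against 0.26, 0.136 and 0.283 CPM and fell by 8.77 on the log2 scale (adjusted p = 0.000943). Cd8b1, the other CD8 chain, overlapped between the groups. Without scaling of library sizes it was at 16.3, 81.7 and 86.9 CPM in floxed and 18.2, 8.38 and 6.2 CPM in deficient libraries. Melanoma markers ran the other way, summing to 774.2, 203.3 and 198.8 CPM in floxed and 4982, 4298 and 2125 CPM in deficient libraries. In deficient replicate 3 the ribosomal-like models took 11.8% of counts, against 1.29 to 2.73% in the other libraries compared. The macrophage, Cd8a and melanoma levels are apart between the groups. In these bulk libraries a change within CD4 cells thus cannot be told apart from more or fewer of those other cells. Nor can fewer cells of a type be told from less RNA per cell.

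**Figure D1:**
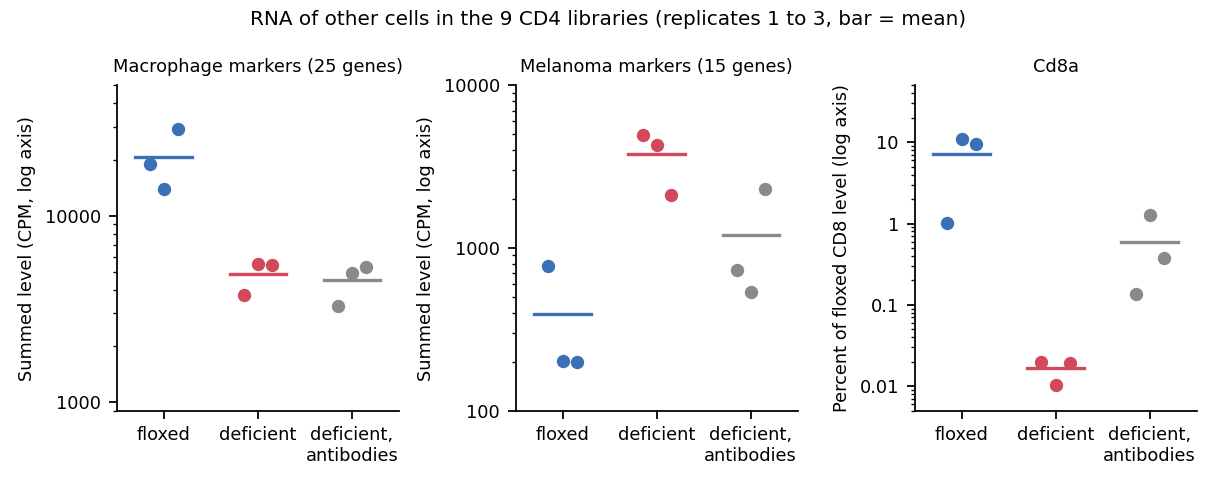
Summed macrophage and melanoma marker levels, and Cd8a as percent of its floxed CD8 level, in each floxed, deficient and treated CD4 library. Axes are logarithmic, with 1 point per library. Macrophage and Cd8a levels were lower and melanoma levels higher in all 3 deficient libraries than in any floxed library.

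Against this background 649 genes were higher in deficient CD4 cells (4.61% of those tested) and 994 were lower (7.06%), 1643 in all (11.7%). These shares are the base rate for the counts of list members below, and several of those counts lie near them. Among the genes that rose 395 passed a change of 2-fold and 297 of 4-fold, with a median size of 1.68 on the log2 scale. Among those that fell 577 passed 2-fold and 223 passed 4-fold, and the median size was 1.19. The groups did not overlap for 28.0% of all tested genes, and the median log2 fold change of all tested genes was 0.007. Of the called genes 288 that rose and 129 that fell were called in the same direction in CD8 cells. The share of all tested genes called in CD8 cells is not given here, so these counts have no base rate. Melanoma markers were higher in deficient CD8 libraries too, at 3644, 3564 and 1602 CPM against 227, 198.6 and 247.3 CPM in floxed CD8 libraries. Their part in the shared rises was not tested. The count dropped to 783 without floxed replicate 3 and to 818 without deficient replicate 1, the libraries with the highest macrophage and the highest melanoma level among the 6. With the macrophage level as a covariate 47 genes were higher (0.334%) and 53 lower (0.376%), and with the macrophage and CD8 levels 3 were called (0.0228%). With the melanoma level, a choice made after the data were seen, 7 were higher (0.0497%) and 74 lower (0.526%). Subtracting from each library the CD8 profile that its Cd8a level stands for left 723 higher (5.14%) and 1110 lower (7.89%). Of 62 called genes named here 15 kept the call with the macrophage level, 17 with the melanoma level, 7 with the CD8 level, 3 with macrophage and melanoma levels and 1 with macrophage and CD8 levels, and 58 kept it after the subtraction. Those with the macrophage level were Plin2, Abcg1, Ctsb, Ctsd, Gla, Fbxl5, Fcna, Lyz1, Fos, Slamf7, Nkg7, Cd38, Asns, Stc2 and Gh. With the melanoma level they were Plin2, Abcg1, Ctsb, Ctsd, Gla, Fbxl5, C1qa, Mertk, Cd5l, Fcna, Oasl1, Slamf7, Cd38, Cebpb, Stc2, Dpp4 and Gh. With the CD8 level they were Plin2, Gla, Mertk, Cd5l, Fcna, Gh and Cd8a itself. The 4 not called after the subtraction were Cd8a, Gzmf, Havcr2 and Ifng.

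**Figure D2:**
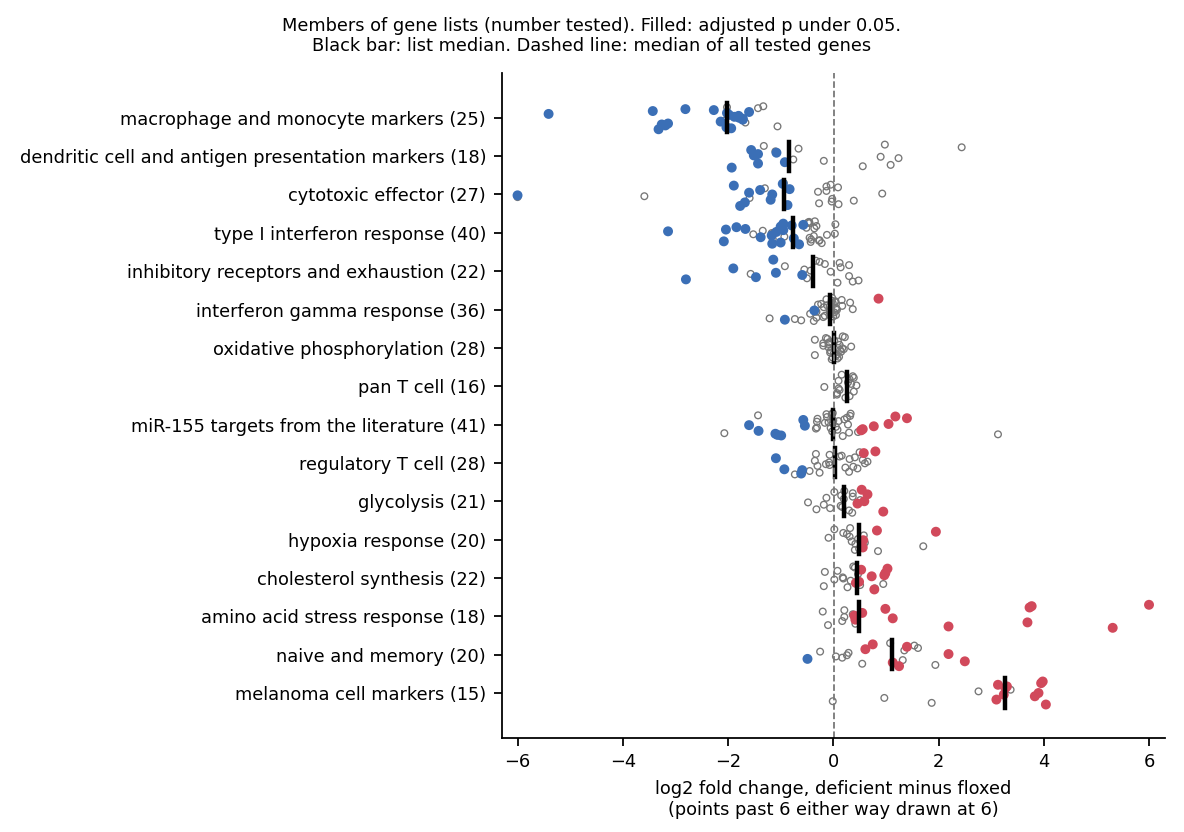
Log2 fold change, deficient minus floxed CD4, of the members of the gene lists (points) with the median of each list (bar) and the median of all tested genes (line). Macrophage, cytotoxic and type I interferon lists lay below the line and melanoma, cholesterol and amino acid stress lists above it.

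Transcripts that macrophages are known for were lower in deficient libraries. Of the 25 macrophage and monocyte markers 19 fell and 0 rose, with a median log2 fold change of -2.02. Leaving out 1 library gave 14 to 19 that fell. C1qa, a chain of complement C1q, was at 1050, 720 and 1490 CPM in floxed and 73.6, 158 and 125 CPM in deficient libraries, a fall by 3.19 (SE 0.43, adjusted p = 0.000502). Adgre1, which encodes F4/80, was at 632, 517 and 1120 CPM against 50.8, 87 and 89.9 CPM, and fell by 3.32 (SE 0.51, adjusted p = 0.00116). Both were lower in each deficient library than in any floxed one. Mertk, a receptor for the uptake of dying cells, went from 73.4, 45.2 and 82.9 CPM to 5.32, 7.75 and 5.37 CPM, and fell by 3.43 (SE 0.35, adjusted p = 7.11e-06). Cd5l, a secreted macrophage protein, stood at 15.6, 11.8 and 34.6 CPM in floxed libraries and had 0 counts in the deficient ones, at least 114-fold lower. In treated libraries it was at 1.75, 2.41 and 4.4 CPM. Retnla, a marker of alternatively activated macrophages, was at 198, 218 and 1070 CPM in floxed, 0.519, 1.09 and 11 CPM in deficient and 248, 187 and 182 CPM in treated libraries, and fell by 7.30 between the first 2 groups (SE 1.28, adjusted p = 0.0033). Fcna, a ficolin, followed the same order at 21.2, 9.47 and 23.4 CPM, then 0.39, 0 and 0.283 CPM, then 16.1, 5.72 and 10.2 CPM (fall by 6.27, adjusted p = 0.0001). The treated values of Retnla and Fcna overlapped the floxed ones, while the treated macrophage sums of 3282, 4949 and 5296 CPM did not exceed the highest deficient sum. Lyz1, a lysozyme gene, fell by 5.41 (SE 0.71, adjusted p = 0.00051), but reads shared with its close copy Lyz2 make its level uncertain. Of the natural killer cell markers 4 of 11 fell (median -1.33), and of the dendritic cell and antigen presentation markers 7 of 18 fell (median -0.84). Without deficient replicate 1 there were 0 and 1 that fell, and without floxed replicate 3 there was 1 in each list. The natural killer sum was 1022, 850 and 1550 CPM in floxed and 396.1, 582.1 and 558.5 CPM in deficient libraries. This list is not separate from the others. Tyrobp and Fcer1g are also in the macrophage list, Klrk1 and Gzma in the cytotoxic list and Eomes in the CD8 lineage list. The part of these shared members in the sum was not tested.

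Plin2, Abcg1 and Ctsb had the smallest adjusted p of the genes that fell and still stood at 20 CPM or more in deficient cells, and Fbxl5 and Ctsd followed within the first 7. Plin2, the coat protein of lipid droplets, was at 545, 458 and 543 CPM in floxed and 120, 154 and 141 CPM in deficient libraries, 3.73-fold lower (log2 fold change -1.90, SE 0.14, adjusted p = 1.96e-07). The groups stood far apart, and in CD8 cells the same gene rose by 0.66 (adjusted p = 0.00278), a CD4 minus CD8 difference of -2.56 (adjusted p = 2.35e-07). Plin2 was also called with the macrophage level (adjusted p = 0.00208), with the melanoma level (0.000365) and with both as covariates (0.0287). Abcg1, which exports cholesterol from the cell, was at 189, 246 and 299 CPM against 77.4, 69.9 and 62.8 CPM, and fell by 1.80 (SE 0.15, adjusted p = 6.85e-07). It too differed from CD8 cells, where it rose by 1.16 (difference -2.96, adjusted p = 1.22e-07), and it was called with the macrophage level as covariate (adjusted p = 0.00208) but not with macrophage and melanoma levels together (0.12). Ctsb, a lysosomal protease, stood at 2870, 2320 and 3970 CPM in floxed and 692, 828 and 782 CPM in deficient libraries (log2 fold change -1.99, SE 0.17, adjusted p = 6.85e-07). Ctsd, an acid protease of the same compartment, went from 921, 758 and 1120 CPM to 323, 402 and 344 CPM and fell by 1.39 (SE 0.15, adjusted p = 1.41e-05). Macrophages express these genes strongly, and all of them were lower in deficient libraries together with the macrophage sum. Within the groups Ctsb and Ctsd followed the order of that sum. Plin2 did not in the floxed group, and Abcg1 did not in either group. The part of macrophage RNA in these genes was not tested beyond fits with that level as covariate. Gla, the lysosomal alpha-galactosidase, is named after its values were seen, as 1 of 8 genes called with both the macrophage and melanoma levels as covariates. It was at 123, 99.8 and 80.4 CPM in floxed and 40.4, 34.1 and 31.1 CPM in deficient libraries, and fell by 1.52 (SE 0.18, adjusted p = 4.02e-05; 0.00889 with both covariates). Fbxl5, the iron-sensing subunit of a ubiquitin ligase, was at 321, 273 and 280 CPM against 138, 140 and 122 CPM, and fell by 1.13 (SE 0.11, adjusted p = 6e-06).

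Fos, Atf3 and Fosb, transcription factors of the immediate-early kind that cells switch on soon after a stimulus, fell in deficient cells, while the lists that hold such genes had medians near 0. Fos was at 1140, 1130 and 1890 CPM in floxed and 507, 485 and 555 CPM in deficient libraries, a fall by 1.42 (SE 0.17, adjusted p = 3.24e-05). In CD8 cells it rose by 0.83 (adjusted p = 0.00156), and the difference between the cell types was -2.26 (adjusted p = 1.28e-05). Atf3, a stress-induced factor, was at 390, 380 and 604 CPM against 96.6, 134 and 149 CPM, and fell by 1.86 (SE 0.23, adjusted p = 0.0001). Fosb, a partner of Jun proteins, went from 244, 324 and 439 CPM to 144, 170 and 158 CPM and fell by 1.09 (SE 0.23, adjusted p = 0.00445). None of these values overlapped between the groups. Over the list of stress and heat shock genes, which tissue digestion can also raise, 6 of 19 fell and 1 rose (median -0.1). Of the 27 genes induced through the T cell receptor 4 fell and 1 rose (median -0.03), where 7.06% and 4.61% of all tested genes did. Leaving out 1 library gave 3 to 6 and 3 to 4 that fell. Fos was called with the macrophage level as covariate (adjusted p = 0.046) and Atf3 was not (0.14).

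Genes of the type I interferon response, the antiviral programme that cells start when interferon alpha or beta binds its receptor, were lower as a group. Of 40 list members 17 fell and 0 rose, 38 had a negative log2 fold change, and the median was -0.77. Ifit2, which binds foreign RNA, was at 292, 403 and 474 CPM in floxed, 105, 172 and 171 CPM in deficient and 189, 235 and 226 CPM in treated libraries, and fell by 1.38 between the first 2 groups (SE 0.20, adjusted p = 0.00025). Oasl1, an inhibitor of Irf7 translation, was at 86.8, 76.3 and 85.1 CPM against 13.5, 30.7 and 15.6 CPM, and fell by 2.04 (SE 0.32, adjusted p = 0.00051). Irf7, the factor that amplifies interferon production, went from 344, 324 and 520 CPM to 122, 218 and 188 CPM and fell by 1.17 (SE 0.19, adjusted p = 0.000769). Floxed and deficient libraries did not overlap for any of the 3 genes, nor for 23 of the 40 members. All 23 lay lower, where 14.7% of all tested genes lay lower without overlap. In CD8 cells these 3 genes rose, Irf7 by 1.23 (adjusted p = 0.00026), and the CD4 minus CD8 difference was -2.06 for Ifit2, -3.24 for Oasl1 and -2.40 for Irf7 (adjusted p = 0.000145, 0.000185 and 2.82e-05). The number of members that fell was 9 without deficient replicate 1, 8 without floxed replicate 3, 11 without deficient replicate 3 and 19 to 21 without each of the others. With the macrophage level as covariate 0 of 40 were called and the median was -0.43, with the melanoma level 1 was called and it was -0.47, while 24 fell after the CD8 profile was subtracted (median -0.89). With macrophage and CD8 levels 0 of the list were called (median -0.05), and with macrophage and melanoma levels 0 (median -0.15). The list fell together with the macrophage sum given above, and the part of macrophage RNA in it was not tested beyond these fits. The interferon gamma list had 1 gene that rose and 2 that fell among 36 (median -0.06).

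The promoters of this list are shown because its members fell together. The interferon-stimulated response element was searched as GAAANNGAAA on both strands, in the 250 bases before to 50 bases after each start site (RefSeq, GRCm38.p6). It was found in 16 of the 29 members that the promoter table holds (55.2%), in 3.99% of all 27025 promoters, in 7.33% of those of genes that fell and in 4.32% of those of genes that rose. Below are the match in Oas1g, which makes the activator of RNase L, at chr5:120887612-120887641 on the minus strand, and that in Stat2, which carries the interferon signal to the nucleus, at chr10:128270266-128270295 on the plus strand. The match stands in capitals, and for Stat2 it is the reverse complement of the search pattern.
Oas1g: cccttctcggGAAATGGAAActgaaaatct
Stat2: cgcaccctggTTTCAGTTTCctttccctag
Oas1g, whose reads can be shared with its near copies, was at 13, 17.2 and 36.6 CPM in floxed and 1.3, 2.58 and 3.96 CPM in deficient libraries (log2 fold change -3.14, SE 0.68, adjusted p = 0.00504). Stat2 went from 94.1, 85.1 and 165 CPM to 50.8, 71.9 and 53.7 CPM, and fell by 0.95 (SE 0.25, adjusted p = 0.0199). Its call was lost without floxed replicate 3 (adjusted p = 0.121), deficient replicate 1 (0.0917) and deficient replicate 3 (0.0557).

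Cytotoxic effector genes were lower in deficient CD4 cells, with 11 of 27 list members that fell, 0 that rose and a median of -0.94. Without deficient replicate 1 there were 6 that fell, without floxed replicate 3 there were 7, and without each of the others 8 to 13. Because floxed CD4 libraries 2 and 3 carried Cd8a at 10.9% and 9.46% of the CD8 level, each gene is given with the share of its floxed level that the Cd8a-matched amount of the floxed CD8 profile would make. Slamf7, a receptor of activated lymphocytes, was at 224, 186 and 230 CPM in floxed and 35.8, 68.3 and 69.8 CPM in deficient libraries, and fell by 1.89 (SE 0.22, adjusted p = 3.24e-05). That share was 0.559%, 6.87% and 5.28% in the 3 floxed libraries. Nkg7, a protein of cytotoxic granules, stood at 209, 215 and 226 CPM against 110, 127 and 129 CPM, and fell by 0.83 (SE 0.11, adjusted p = 0.0001), with a share of 2.83%, 28.1% and 25.4%. Ccl3, a chemokine that draws in myeloid and T cells, was at 250, 299 and 371 CPM against 62.7, 121 and 85.7 CPM, and fell by 1.77 (SE 0.24, adjusted p = 0.00025), with a share of 4.09%, 35% and 26.7%. For all 3 the groups were apart, floxed replicate 1 with its low Cd8a included. After subtraction of the CD8 profile Slamf7, Nkg7 and Ccl3 stayed lower by 1.95, 0.65 and 1.52 on the log2 scale (adjusted p = 2.25e-05, 0.00118 and 0.000409). Ifng, the gene of interferon gamma, differed in this respect. It was at 96.6, 204 and 172 CPM in floxed, 37.7, 47.7 and 72.7 CPM in deficient and 149, 193 and 64.2 CPM in treated libraries, and fell by 1.60 (SE 0.44, adjusted p = 0.0305). Here the share was 8.8%, 42.6% and 47.9%, and with that profile subtracted the change was -1.07 (adjusted p = 0.1). The call of Ifng was also lost without floxed replicate 2 or 3 (adjusted p = 0.0888 and 0.101) and without deficient replicate 1 or 2 (0.133 and 0.101). Prf1, the pore-forming perforin, was at 87, 253 and 188 CPM against 71.7, 80.5 and 61.9 CPM (log2 fold change -1.30, SE 0.43, adjusted p = 0.0719), and 17.1%, 60% and 76.5% of the floxed values were such a share. Without floxed replicate 1 Prf1 was called (-1.66, adjusted p = 0.0178). Gzmb, granzyme B, was at 927, 873 and 769 CPM against 680, 1010 and 837 CPM (log2 fold change -0.02, SE 0.25, adjusted p = 0.973), with overlapping groups. Gzmf, a granzyme with close copies, was at 5.72, 29.4 and 30.9 CPM in floxed and 0, 0 and 0.283 CPM in deficient cells (adjusted p = 0.0281, and 0.0628 to 0.119 without any 1 of the libraries but floxed replicate 1). Its Cd8a-matched share was 55.5%, 111% and 99.8%. In the whole list 7 members fell after the subtraction (median -0.12), and 2 fell with the macrophage level as covariate (median -0.67). With the melanoma level 1 fell (median -0.18). With macrophage and melanoma levels 0 fell (median -0.15), and with macrophage and CD8 levels 0 fell (median -0.34). Slamf7 and Nkg7 were called with the macrophage level alone, and Ccl3 was not. The list was lower together with the macrophage sum given above, and the part of macrophage RNA in it was not tested beyond these fits.

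**Figure D3:**
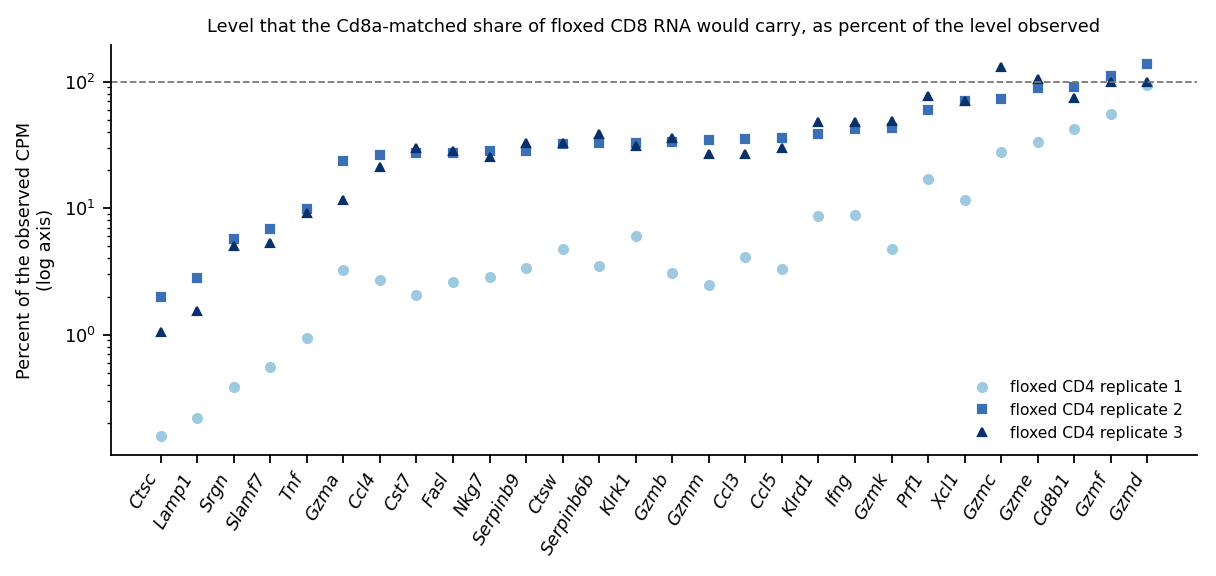
Percent of the level of cytotoxic genes in each floxed CD4 library that the Cd8a-matched amount of the floxed CD8 profile would make, 1 point per library. The share was lowest in replicate 1 for each gene shown, at most 6.87% for Slamf7 and between 55.5% and 111% for Gzmf in the 3 libraries.

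Among 22 inhibitory receptors and exhaustion genes 6 fell and 0 rose (median -0.38). Without floxed replicate 2 or deficient replicate 1 there were 3 that fell, and 4 to 7 without each of the others. With the macrophage level as covariate 2 fell (median -0.88), and with the melanoma level 2 (median -0.15). With macrophage and melanoma levels 0 fell (median -0.58), and with macrophage and CD8 levels 0 (median -0.69). After subtraction of the CD8 profile 4 fell (median -0.22). Cd38, an NAD-consuming surface enzyme, was at 54, 46.1 and 48.5 CPM in floxed and 16, 17.8 and 20.4 CPM in deficient libraries, and fell by 1.47 (SE 0.20, adjusted p = 0.0001). It was called with the macrophage level as covariate too (adjusted p = 0.0317). Cd160, a receptor of CD8 and natural killer cells, stood at 5.72, 27.3 and 30.6 CPM against 2.21, 2.72 and 4.81 CPM, and fell by 2.80 (SE 0.49, adjusted p = 0.00207). As with Cd8a, its floxed level was low in replicate 1 and high in the other two, and after subtraction of the CD8 profile the change was -2.15 (adjusted p = 0.00359). Havcr2, which encodes TIM-3, went from 132, 184 and 152 CPM to 71.7, 77.8 and 70.4 CPM and fell by 1.09 (SE 0.28, adjusted p = 0.0175). It was no longer called without floxed replicate 2 (adjusted p = 0.0587), floxed replicate 3 (0.057) or deficient replicate 1 (0.0682). Nor was Havcr2 called with the macrophage or the melanoma level as covariate, or after subtraction of the CD8 profile. The targets of the antibodies used elsewhere in the study did not pass the test. Pdcd1, which encodes PD-1, was at 296, 313 and 248 CPM against 262, 231 and 277 CPM (log2 fold change -0.16, SE 0.14, adjusted p = 0.567). Ctla4 was at 1450, 1090 and 799 CPM against 1350, 1320 and 1430 CPM (log2 fold change 0.30, SE 0.17, adjusted p = 0.318). Both overlapped between the groups.

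Melanoma transcripts were higher in deficient libraries. Of 15 melanoma markers 10 rose and 0 fell, with a median of 3.27, and the number was 0 without floxed replicate 3, 1 without floxed replicate 2 or deficient replicate 1, and up to 12 without the others. Sox10, a factor of the pigment cell lineage, was at 4.21, 0.549 and 1.99 CPM in floxed, 26.6, 24.9 and 12.2 CPM in deficient and 5.93, 2.11 and 12.7 CPM in treated libraries, and rose by 3.27 (SE 0.74, adjusted p = 0.00858; 0.0527 without floxed replicate 3). Tyr, the enzyme that starts melanin synthesis, was at 17, 1.24 and 0.747 CPM in floxed and 136, 111 and 52.6 CPM in deficient libraries, and rose by 3.95 (SE 0.94, adjusted p = 0.017). Without floxed replicate 2, floxed replicate 3 or deficient replicate 1 its adjusted p was 0.052, 0.074 and 0.06. Cpne4 and Gpm6a were among the 12 largest rises. Cpne4, a calcium-dependent membrane-binding protein, had 0 counts in floxed libraries, stood at 9.87, 5.98 and 7.63 CPM in deficient and at 2.44, 0 and 4.01 CPM in treated ones, and was at least 45.5-fold higher (adjusted p = 0.000387). Gpm6a, a membrane protein best known in neurons, had 0 counts in floxed libraries and was at 11.2, 5.71 and 3.96 CPM in deficient ones, at least 43.9-fold higher (adjusted p = 0.0027). In the treated libraries it was at 1.22, 0 and 3.82 CPM, in the order of the treated melanoma sums of 737, 537.3 and 2318 CPM. With the melanoma level as covariate neither Cpne4 (adjusted p = 0.0597) nor Gpm6a (0.38) was called, and Gh was (0.00481).

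**Figure D4:**
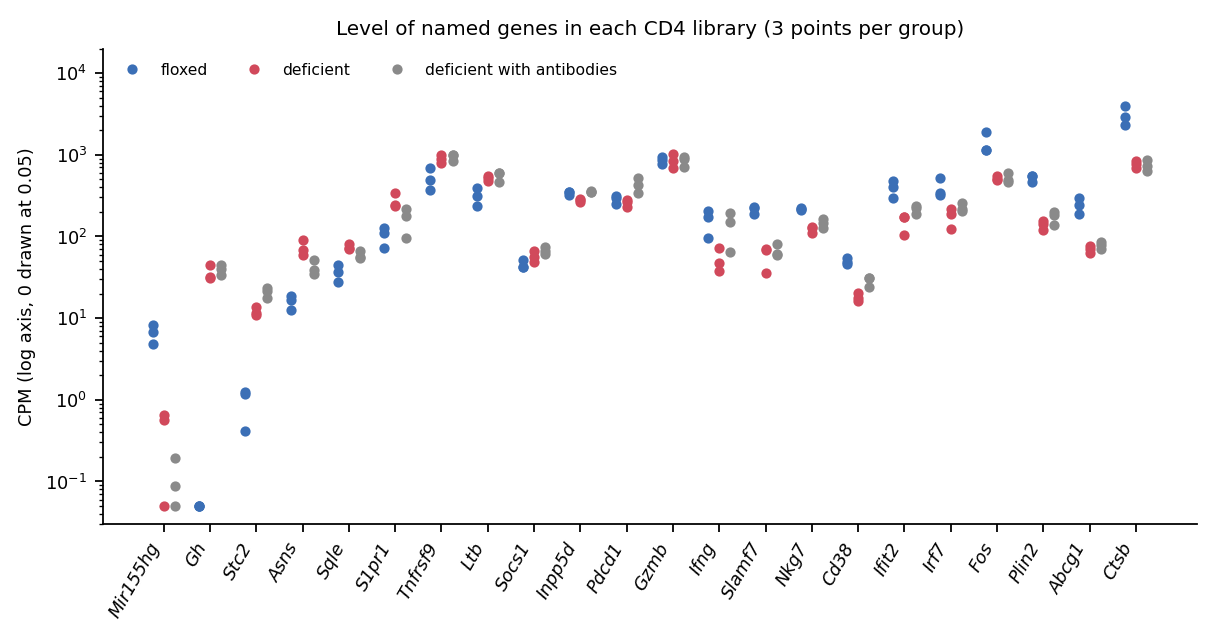
Expression of genes named in the text in each floxed, deficient and treated CD4 library, on a log axis of CPM with 1 point per library. The 3 deficient libraries lie on 1 side of the 3 floxed ones for each called gene shown.

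Genes that respond to a shortage of amino acids, through the factor Atf4, were higher. Of 18 list members 11 rose and 0 fell (median 0.49). Without floxed replicate 3 or deficient replicate 1 there were 7 that rose, and 8 to 12 without each of the others. Asns, asparagine synthetase, was at 18.8, 12.6 and 16.7 CPM in floxed, 89.7, 68.5 and 59.9 CPM in deficient and 39.1, 34.6 and 51.6 CPM in treated libraries, and rose 4.57-fold (log2 fold change 2.19, SE 0.26, adjusted p = 4.81e-05). The floxed and deficient values were far apart, and the rise was larger than in CD8 cells (difference 1.32, adjusted p = 0.0191). Asns was also called with the macrophage level as covariate (adjusted p = 0.00208), and not with the melanoma level (0.0999). Stc2, a secreted stress-induced glycoprotein, was at 1.18, 0.412 and 1.24 CPM in floxed, 11.4, 13.6 and 11 CPM in deficient and 23.3, 21.4 and 17.7 CPM in treated libraries, and rose by 3.73 (SE 0.45, adjusted p = 4.02e-05). Its treated values were the highest of the 3 groups, without a test. It was called with both macrophage and melanoma levels as covariates (adjusted p = 0.04), a pair chosen after the data were seen. Trib3, a pseudokinase that restrains Atf4, was at 2.52, 0.961 and 0 CPM against 22.9, 19.7 and 7.92 CPM, and rose by 3.77 (SE 0.66, adjusted p = 0.00105). Phgdh, the first enzyme of serine synthesis, went from 19.2, 19.1 and 13.7 CPM to 43.9, 35.4 and 34.8 CPM and rose by 1.13 (SE 0.22, adjusted p = 0.00229). The pattern TGATGNAAT, 1 form of the response element of Atf4, was searched on both strands. It was in 0 of the 15 list promoters held by the table and in 1.08% of all. Forms with another last base were not searched, so these promoters may still hold the element. With the macrophage level as covariate 2 of the 18 were called (median 0.74), and with the melanoma level 1 (median 0.40). As a list these genes were higher together with the melanoma sum given above. Tumor cells can express them as well, and the part of melanoma RNA in them was not tested beyond fits with the melanoma level.

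Cholesterol synthesis showed smaller rises, with 8 of 22 enzymes and regulators that rose, 0 that fell and a median of 0.45. Without floxed replicate 3 the count was 3, without deficient replicate 1 or 2 it was 5, and without each of the others 6 to 8. Sqle, the squalene epoxidase, was at 44.9, 36.2 and 27.6 CPM in floxed, 72.6, 80.4 and 70.4 CPM in deficient and 56.6, 54.5 and 65.7 CPM in treated libraries, and rose 2.04-fold (log2 fold change 1.03, SE 0.15, adjusted p = 0.000176). In CD8 cells the change was -0.39 (adjusted p = 0.0631), and the cell types differed by 1.42 (adjusted p = 0.000175). Msmo1, a sterol demethylating enzyme, was at 71.5, 64.5 and 46.5 CPM against 104, 136 and 118 CPM, and rose by 0.97 (SE 0.16, adjusted p = 0.000524). Cyp51, which acts on lanosterol, went from 129, 131 and 92.8 CPM to 188, 225 and 194 CPM and rose by 0.78 (SE 0.17, adjusted p = 0.0046). For all 3 enzymes each deficient library lay above each floxed one. Hmgcs1, the synthase at the head of the pathway, was at 111, 128 and 99.5 CPM against 155, 165 and 155 CPM and rose by 0.49 (SE 0.12, adjusted p = 0.0122), a call lost without floxed replicate 3 (adjusted p = 0.0905) or deficient replicate 2 (0.0578). The sterol response element, searched as TCACNCCAC on both strands, was found in 1 of the 15 list promoters held by the table and in 1.44% of all promoters. That promoter is of Hmgcs1, with the match in capitals at chr13:119690204-119690233 on the plus strand (RefSeq, GRCm38.p6).
Hmgcs1: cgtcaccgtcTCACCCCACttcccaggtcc
With the macrophage level as covariate 1 of the 22 genes was called (median 0.35), and 10 were called after the CD8 profile was subtracted (median 0.51). With the melanoma level 0 were called (median 0.27), and with macrophage and melanoma levels 0 (median 0.15). The cholesterol genes were higher together with the melanoma sum given above, whose part in them was not tested beyond these fits.

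Transcripts of naive and memory T cells were higher as well, with 7 of 20 that rose, 1 that fell and a median of 1.11. The count that rose was 2 without deficient replicate 1, 3 without floxed replicate 3, 4 without floxed replicate 2 and 5 to 8 without each of the others. S1pr1, the receptor that lets T cells leave tissue for lymph and blood, was at 109, 128 and 72.9 CPM in floxed, 344, 233 and 243 CPM in deficient and 216, 97 and 176 CPM in treated libraries, and rose by 1.4 (SE 0.28, adjusted p = 0.0039). It rose more in CD8 cells, by 2.72, and the difference was -1.32 (adjusted p = 0.0358). Ccr7, the receptor for homing to lymph nodes, stood at 52.5, 53.3 and 41.8 CPM against 166, 85 and 72.1 CPM, and rose by 1.13 (adjusted p = 0.0278). Deficient replicate 1 held the highest value, and the call of Ccr7 was lost without it (0.66, adjusted p = 0.169) and without floxed replicate 1, 2 or 3 (adjusted p = 0.0633, 0.0602 and 0.137). Tcf7, which marks naive and stem-like T cells, was found at 85.3, 68.8 and 41.6 CPM against 181, 115 and 118 CPM, without overlap, but did not pass the test (log2 fold change 1.08, SE 0.48, adjusted p = 0.185). With the macrophage level as covariate 0 of the 20 were called and the median was 0.05, with the melanoma level 0 and 0.43, while 8 rose after the CD8 profile was subtracted. With macrophage and melanoma levels 0 were called, and the median turned to -0.4, with 16 of the 20 negative. With macrophage and CD8 levels 0 were called (median 0.01). The part of other cells in this list was not tested beyond these fits. Outside the list Gpr183, an oxysterol receptor that guides migration, was at 99.8, 80 and 69.9 CPM in floxed and 153, 135 and 164 CPM in deficient libraries, and rose by 0.85 (SE 0.14, adjusted p = 0.000664). Dpp4, a surface peptidase known as CD26, went from 54.5, 52.7 and 51.5 CPM to 85.4, 101 and 102 CPM and rose by 0.86 (SE 0.14, adjusted p = 0.000447). Its values hardly varied within the groups, and it was called with the melanoma level as covariate (adjusted p = 0.0307) but not with the macrophage level (0.254).

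Among genes of energy metabolism and low oxygen a minority passed the test. Of 21 glycolysis genes 5 rose and 0 fell (median 0.21). Leaving out floxed replicate 3 gave 0 that rose and 1 that fell, leaving out deficient replicate 1 or 2 gave 2 that rose, and the others 4 or 5. Of 20 hypoxia response genes 4 rose and 0 fell (median 0.48). With the macrophage level as covariate 0 were called (median 0.09), with the melanoma level 0 (median 0.02) and with both 0 (median -0.32). The count was 2 without floxed replicate 2, floxed replicate 3 or deficient replicate 1, 8 without floxed replicate 1 and 3 without each of the others. Pdk1, the kinase that turns pyruvate away from the mitochondria, was at 141, 100 and 81.9 CPM in floxed and 216, 201 and 158 CPM in deficient libraries, and rose by 0.83 (SE 0.16, adjusted p = 0.00184). Hif1a, the hypoxia factor itself, went from 1420, 1250 and 922 CPM to 1690, 1770 and 1860 CPM and rose by 0.57 (SE 0.14, adjusted p = 0.0115; 0.0867 without floxed replicate 3). In 28 oxidative phosphorylation genes 0 were called and the median was 0.01. Where 4.61% of all tested genes rose, the cell cycle lists had 2 of 30 in each of the G1 to S and G2 to mitosis sets. Their medians were 0.13 and 0.24. Both counts were 0 without floxed replicate 1, floxed replicate 3 or deficient replicate 1, and 6 and 9 without floxed replicate 2.

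Helper and regulatory T cell genes were mostly not called. Foxp3, which defines regulatory T cells, was found at 62.6, 52.8 and 32.3 CPM in floxed and 63.6, 60.8 and 80 CPM in deficient libraries (log2 fold change 0.46, SE 0.41, adjusted p = 0.562). Of 28 regulatory T cell genes 2 rose and 4 fell (median 0.03), and without floxed replicate 3 there were 0 and 2, without deficient replicate 1 there were 1 and 2, and without floxed replicate 1 there were 4 and 4. Tnfrsf9, the costimulatory receptor 4-1BB, was at 684, 489 and 370 CPM against 795, 884 and 1000 CPM, and rose by 0.80 (SE 0.20, adjusted p = 0.0118). It fell short of the threshold without floxed replicate 3 (adjusted p = 0.0686) or deficient replicate 3 (0.0518). Its change differed from that in CD8 cells by 2.01 (adjusted p = 0.000159). Nrp1, a semaphorin receptor of regulatory T cells and dendritic cells, was at 220, 294 and 326 CPM against 115, 140 and 140 CPM, and fell by 1.09 (SE 0.20, adjusted p = 0.00184). Fgl2, a secreted suppressor of T cells that macrophages also make, went from 1050, 975 and 1230 CPM to 472, 630 and 605 CPM and fell by 0.93 (SE 0.19, adjusted p = 0.00408). Neither Tbx21, the factor that defines Th1 cells (log2 fold change 0.28, adjusted p = 0.483), nor Gata3, that of Th2 cells (-0.03, adjusted p = 0.961), passed the test. Maf, a factor of follicular helper and Th2 cells, was at 402, 330 and 370 CPM against 234, 279 and 244 CPM, and fell by 0.54 (SE 0.16, adjusted p = 0.0272). Its call was lost without floxed replicate 1 or 3 (adjusted p = 0.0684 and 0.0655) and without deficient replicate 1 or 3 (0.103 and 0.0521). Ccr3, the eotaxin receptor, stood at 14.3, 18 and 12.4 CPM against 47.7, 41.5 and 58 CPM, and rose by 1.70 (SE 0.40, adjusted p = 0.00936; 0.0579 without floxed replicate 3). In CD8 cells it fell by 2.03 (adjusted p = 0.028), so that the cell types differed by 3.73 (adjusted p = 0.00227).

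Cytokines of helper cells were low or level (median -0.20). Where 4.61% of all tested genes rose and 7.06% fell, 1 of the 16 cytokines rose and 2 fell. Without floxed replicate 3 or deficient replicate 1 there were 0 that fell. Ltb, lymphotoxin beta, was at 389, 311 and 235 CPM in floxed and 477, 526 and 557 CPM in deficient libraries, and rose by 0.73 (SE 0.14, adjusted p = 0.00208). Il10 was at 221, 192 and 135 CPM in floxed, 166, 195 and 163 CPM in deficient and 57.6, 38.9 and 76.9 CPM in treated libraries (log2 fold change of the first 2 groups -0.07, SE 0.27, adjusted p = 0.921). Il2, a T cell growth factor, stood at 2.86, 4.8 and 2.74 CPM against 2.99, 4.22 and 3.11 CPM (log2 fold change -0.02, adjusted p = 0.99). Il21, a helper cytokine for B cells, was at 8.75, 7.55 and 2.49 CPM against 5.97, 8.57 and 8.48 CPM (log2 fold change 0.26, adjusted p = 0.864). Il17a stayed at or under 1.92 CPM in the 6 libraries and Il4, which was too low to be tested, at or under 1.24 CPM, where 3 counts over a group stand for 0.174 CPM in floxed and 0.161 CPM in deficient cells. At such levels a difference was not detectable at this depth. Among receptors of the interferon and JAK-STAT list Ifngr1, the ligand-binding chain for interferon gamma, was at 1050, 859 and 746 CPM in floxed and 1270, 1330 and 1330 CPM in deficient libraries. It rose by 0.56 (SE 0.13, adjusted p = 0.00881; 0.0659 without floxed replicate 3), and in the list of 16 it was 1 of 4 that rose, with 1 that fell (median 0.08). Leaving out 1 library gave 0 to 3 that rose, the fewest without floxed replicate 3.

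Reported targets of miR-155, genes that the microRNA is known to repress, went both ways. Of 41 list members tested 6 rose and 7 fell, with a median of -0.01 against 0.007 over all tested genes, and without floxed replicate 3 there were 2 and 4, without deficient replicate 1 there were 3 and 5. Socs1, an inhibitor of cytokine receptors, was at 52.2, 42.5 and 42.1 CPM in floxed and 48.6, 66.1 and 55.7 CPM in deficient libraries (log2 fold change 0.32, SE 0.15, adjusted p = 0.197). Inpp5d, which encodes the lipid phosphatase SHIP1, was at 322, 351 and 355 CPM against 262, 289 and 277 CPM (log2 fold change -0.31, SE 0.15, adjusted p = 0.201). The first overlapped between groups, and the second lay lower in all 3 deficient libraries. Bach1, a haem-binding repressor, was at 140, 180 and 222 CPM against 85.4, 94.5 and 92.7 CPM, and fell by 0.99 (SE 0.15, adjusted p = 0.000386). Cebpb, a factor of myeloid cells, went from 274, 232 and 380 CPM to 128, 164 and 121 CPM and fell by 1.10 (SE 0.19, adjusted p = 0.000957). In CD8 cells both rose, Bach1 by 1.04 and Cebpb by 1.00 (adjusted p = 0.000125 and 0.00157), and the differences between the cell types were -2.03 and -2.10 (adjusted p = 1.41e-05 and 9.34e-05). Smad5, which carries signals of bone morphogenetic proteins, was at 31, 29.2 and 18.9 CPM against 80.5, 55.8 and 43 CPM, and rose by 1.18 (SE 0.23, adjusted p = 0.00231). Each deficient value lay above each floxed one. Macrophages are known to express Bach1 and Cebpb, and both were lower together with the macrophage sum. With that level as covariate neither Bach1 (adjusted p = 0.26) nor Cebpb (0.368) was called. The targets that rose lost their calls as well. Over the list 0 rose and 1 fell with the macrophage level, and 0 rose and 1 fell (Cebpb) with the melanoma level. With macrophage and melanoma levels 0 were called, and with macrophage and CD8 levels 0. The part of other cells in these rises and falls was not tested beyond such fits.

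The 3′UTRs of these genes do hold the seed match, which is why they are shown. The 7-base match AGCATTA, or the 8-base match AGCATTAA, stands in capitals within 30 bases of the 3′UTR (GENCODE M21, GRCm38). The windows lie at chr16:10784202-10784231 (minus strand) for Socs1, chr1:87719820-87719849 (plus) for Inpp5d, chr16:87732170-87732199 (plus) for Bach1, chr2:167690348-167690377 (plus) for Cebpb, chr13:56738467-56738496 (plus) for Smad5, chr3:115710673-115710702 (minus) for S1pr1 and chr10:19610167-19610196 (plus) for Ifngr1.
Socs1: cggctgccgctgtgccgcAGCATTAAgtgg
Inpp5d: cctgagatgtttttaaaaAGCATTAAagaa
Bach1: tctctctatgaacagtttAGCATTAAgggt
Cebpb: agaaccttttccgtttcgAGCATTAAagtg
Smad5: agtcccctacaatgttatgAGCATTAttga
S1pr1: gtaccccccactccccaaaAGCATTActtt
Ifngr1: tgtacatacttttttatggAGCATTActta
The first 4 windows hold the 8-base match and the last 3 the 7-base match. Among targets with a match 4 rose, namely Smad5, S1pr1, Ifngr1 and Myo10 (the last named after its values were seen, and not called without floxed replicate 1 or 3 or deficient replicate 1), and 2 fell, Bach1 and Cebpb. The 8-base match was held by 1 of the 4 and by both of the 2. Of the 41 targets 28 had a match, with a median log2 fold change of 0.02, and those without had a median of -0.05.

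Over all genes with a 3′UTR, 1365 held a match and 10765 did not. Their median log2 fold changes were 0.053 and 0.008, a difference of 0.045, which was 0.072, 0.022 and 0.013 when each deficient library in turn was set against the floxed mean (SD 0.032). It was 0.080 with macrophage and CD8 levels as covariates and 0.036 with macrophage and melanoma levels. With the 8-base match alone, held by 479 genes, the difference was 0.044, and 0.043 and 0.024 with those 2 pairs of covariates. Among genes with a match 6.59% rose and 6.45% fell, and among those without 4.93% rose and 8.09% fell. A match was held by 14.5% of the genes that rose (90 of 621), 9.18% of those that fell (88 of 959) and 11.3% of all tested.

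**Figure D5:**
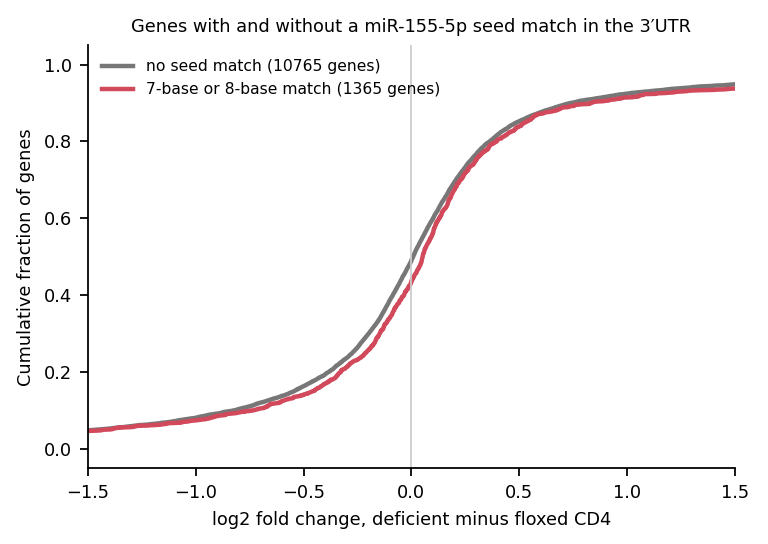
Cumulative share of genes by log2 fold change, deficient minus floxed CD4, for genes with and without a match to the miR-155-5p seed in the 3′UTR. The curves lie close together, with medians of 0.053 and 0.008.

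The change from floxed to deficient libraries differed between CD4 and CD8 sorts for 1634 genes (11.6% of those tested), by a test of the difference of the 2 log2 fold changes. It was more positive in CD4 libraries for 664 (4.72%) and more negative for 970 (6.89%). Macrophage sums were lower without overlap in deficient CD4 libraries, and not in deficient CD8 ones. The part of RNA of other cells in these differences was not tested. Of the 1643 genes called in CD4 cells 704 (42.8%) differed between the cell types in this test. These genes were picked by their CD4 change, which is a part of the difference tested. A share above that of all genes follows in part from that choice and is not read as a result. P2rx4, an ATP-gated channel, was at 125, 97.6 and 161 CPM in floxed and 49.5, 59 and 56.6 CPM in deficient CD4 libraries and fell by 1.21 (SE 0.19, adjusted p = 0.000355), with a difference from CD8 cells of -2.95 (adjusted p = 4.05e-06). Within both CD4 groups P2rx4 followed the order of the macrophage sum. Pdcd1 and Ctla4 were not called in CD4 cells, yet their changes differed from those in CD8 cells by 1.52 and 1.60 (adjusted p = 9.34e-05 and 0.000339). CD8 means of Pdcd1 went from 812 to 254 CPM and those of Ctla4 from 288 to 117 CPM. Nkg7, Ccl3 and Cd38 fell in both cell types, with differences of 0.31, 0.20 and -0.22 that did not pass the test (adjusted p = 0.241, 0.779 and 0.702).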

How the data were processed

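The 6 libraries compared are of CD4+ T cells sorted from tumors, 3 floxed and 3 deficient, and the group of each library was taken from its label. Each library has a deposited file of read counts by gene. Per the file headers, reads were assigned by strand with featureCounts 1.5.1 to the Ensembl release 87 annotation. The submitters' processing notes name the build GRCm38 and the tools STAR and DESeq2. Symbols came from GENCODE M21, which held 99.5% of the 49671 gene models. Counts were used as deposited. All 18 libraries entered 1 fit (edgeR 4.0.16 in R 4.3.3, filterByExpr, TMM, robust quasi-likelihood, Benjamini-Hochberg), with 12 residual degrees of freedom and a biological coefficient of variation of 0.229, and calls rest on an adjusted p under 0.05. SE is the log2 fold change over the square root of F. Marker covariates are log2 summed levels per library. The CD8 subtraction scales the mean floxed CD8 profile to each library's Cd8a level. Lists are described by counts and medians, with no test of their own. Named genes are a fixed set, the largest and the most certain changes, and up to 5 members per list, and genes outside this rule are said to be named after their values were seen. Part of the fixed set is not reported here. The members and lists were chosen with earlier results of these data known. Seed matches were searched in GENCODE M21 3′UTRs and motifs in RefSeq promoters. On simulated counts of 13654 genes with 50 changed genes per size, 33 of 50 genes with a 2-fold and 44 of 50 with a 4-fold rise were recovered, with 10 other genes called. Floors cover counting error only.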

Additional observations from a re-analysis of the deposited data

Results flagged for a closer look

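The change from floxed to deficient libraries differed between CD4 and CD8 sorts for 41 genes named above, by a test of the difference itself (edgeR's quasi-likelihood test, Benjamini-Hochberg adjusted p under 0.05 over all genes). Values are CD4 minus CD8 differences of the log2 fold change, 3 libraries a group, and the treated libraries took no part in them. Macrophage marker sums were lower in deficient than in floxed CD4 libraries without overlap, which was not so in CD8 cells, where they were 706.8, 822 and 2305 CPM in floxed and 1718, 2300 and 3394 CPM in deficient libraries, and the part of these sums in the differences was not tested.

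Among genes that macrophages are known for the difference was -4.77 for C1qa, -4.33 for Adgre1, -4.91 for Mertk, -5.68 for Fcna and -4.64 for Lyz1. It was -2.56 for Plin2, -2.96 for Abcg1, -1.92 for Ctsb, -0.74 for Ctsd, -1.49 for Gla, -1.5 for Fbxl5 and -2.95 for P2rx4. Interferon response genes differed by -2.06 (Ifit2), -3.24 (Oasl1), -2.40 (Irf7), -3.97 (Oas1g) and -1.15 (Stat2). Immediate-early factors and reported targets differed by -2.26 (Fos), -1.83 (Atf3), -2.03 (Bach1), -2.10 (Cebpb), -0.69 (Socs1) and 2.5 (Myo10). Further differences toward lower values in CD4 cells were -7.84 for Cd8a, -2.26 for Cd160, -1.18 for Slamf7, -2.06 for Maf and -1.32 for S1pr1.

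Other genes had a more positive change in CD4 than in CD8 cells. The first 7 of them fell in CD8 cells, by 1.68 (Pdcd1), 1.30 (Ctla4), 2.68 (Havcr2), 1.76 (Gzmb), 1.22 (Tnfrsf9), 0.78 (Tbx21) and 2.03 (Ccr3) on the log2 scale. The difference was 1.52 for Pdcd1, 1.60 for Ctla4, 1.59 for Havcr2, 1.74 for Gzmb, 2.01 for Tnfrsf9, 1.05 for Tbx21 and 3.73 for Ccr3. Further differences of this sign were 1.32 (Asns), 1.19 (Phgdh), 1.42 (Sqle), 1.11 (Cyp51), 0.66 (Hmgcs1) and 0.71 (Hif1a).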

How the results depend on the processing

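Of 1643 calls, 1625 were also made in the same direction with DESeq2's median-of-ratios scaling in edgeR, 1640 with DESeq2, 1493 with limma voom and 1577 after subtraction of the CD8 profile. Levels of other cells changed the counts most. Genes higher and lower numbered 47 and 53 with the macrophage level as covariate (100 in all), 1 and 11 with the CD8 level (12), 3 and 0 with macrophage and CD8 levels (3), 7 and 74 with the melanoma level (81), and 4 and 4 with macrophage and melanoma levels (8). The last 2 were chosen after the data were seen. These levels are apart between the groups, so such fits leave little of the comparison, and the cause of the lost calls was not tested. Leaving out 1 library gave 783 to 1584 calls, 247 to 562 higher and 536 to 1022 lower. The difference in medians by seed match was 0.080 with macrophage and CD8 levels.

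With macrophage and CD8 levels as covariates the sign turned for Cebpb (0.35), Fosb (0.26), Hif1a (-0.22), Ifngr1 (-0.17), Ltb (-0.25), Nrp1 (0.05), Pdk1 (-0.01), S1pr1 (-0.59), Stat2 (0.29) and Tnfrsf9 (-0.23), and with macrophage and melanoma levels for Ccr7 (-0.28), Ifng (0.06), Ifngr1 (-0.16), Oas1g (0.52), S1pr1 (-0.07) and Trib3 (-0.62), none of them called there (log2 fold changes, cause not tested). Cd8a came to 0 after subtraction of the CD8 profile, by construction.

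With the replicate number as a block within cell type 1592 genes were called, 592 higher and 1000 lower, 1446 of them shared in direction. Deviations of floxed and deficient libraries with the same number correlated at 0.055, -0.067 and 0.086, so the numbers were not taken to pair the samples. At 3.87 to 7.39 M counts, 3 counts over a group stand for 0.174 and 0.161 CPM, and differences of rare cytokines lie near that limit.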
